A study of Mus musculus with 24 samples.

Results

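The mitochondrial ribosomal protein genes are the nuclear genes whose symbols start with Mrpl (large subunit) or Mrps (small subunit) followed by a number. Rows of the count table with such a symbol were taken, leaving out the 2 rows of pseudogenes with -ps in the symbol, which gave 67 members, 45 Mrpl and 22 Mrps, of 12310 rows in all. The mouse annotation used here holds 78 genes under the same rule, and the other 11 (Mrpl23, Mrpl42, Mrpl44, Mrpl53, Mrps9, Mrps10, Mrps18a, Mrps28, Mrps31, Mrps35 and Mrps36) were not analysed here. RNA sequencing compared MIN6 cells, an insulin-secreting line from a mouse insulinoma labelled as beta cells, after 24 h with 50 µM verapamil, a blocker of L-type calcium channels, with cells left untreated (control). Both groups were kept in medium with 5.6 mM glucose, and each had 12 libraries in 4 experiment sets of 3, as read from the sample descriptions. No engineered allele and no other agent is named in the labels, and a tumour line is a model of beta cells, not primary tissue.

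The mitochondrial ribosome (mitoribosome) sits in the matrix at the inner membrane and makes the few respiratory chain subunits that mitochondrial DNA encodes. Its ribosomal RNAs are transcribed in the organelle, whereas all of its proteins are encoded in the nucleus and imported, so a mitoribosome needs both genomes. Some of its proteins descend from those of the bacterial ribosome and others are particular to mitochondria, and in beta cells the respiratory chain that depends on them couples glucose metabolism to insulin secretion.

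Libraries held between 12590476 and 44806556 counts, and levels are given as CPM, counts relative to the library total after scaling by trimmed mean of M values. All 10 beta cell markers searched had rows, of which 2 were higher with verapamil, 5 lower and 3 did not pass, with log2 fold changes from -2.26 (Pcsk1) to 0.85 (Mafa). Ins2 had 1318 ± 160 CPM in the controls and 635 ± 116 CPM with verapamil (SD, n = 12 each). Markers of acinar, ductal, mesenchymal, endothelial and immune cells had no rows, and of the 4 markers of other islet cells only Gcg had a row, at 174 to 198 CPM in the controls and 176 to 333 CPM with verapamil. Gcg was higher with verapamil (log2 fold change 0.49, adjusted p = 1.4e-05, edgeR), and its part in the results was not tested. Across the genes of a library, the log2 difference from the control mean followed transcript GC content with r from -0.19 to 0.18 (control) and from 0.036 to 0.65 (verapamil), and log2 transcript length with r from -0.14 to 0.13 (control) and from -0.61 to -0.051 (verapamil). The library with r of -0.61, in column V11 of set 4, stood apart from the others, and results are given with and without it below.

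Promoters of the members were searched for sequences that these genes share. Of the 67 members, 60 matched a promoter in the RefSeq table (GRCm38.p6, 250 bases before to 50 bases after the start site), with 66 promoters in all. Words bound by regulators of mitochondrial genes were searched on both strands: CCGGAAG, the core bound by ETS factors such as GABPA; GCGCATGCG, the site type of NRF1; and AAGATGGCG, the site type of YY1. CCGGAAG was found in 36.4% of the members' promoters and in 8.86% of all 32851 promoters of the same length, GCGCATGCG in 10.6% and 1.75%, and AAGATGGCG in 9.09% and 1.40%. Among promoters of genes in the test the shares were 17.3%, 3.66% and 3.08%. The promoters below are those of Mrpl22 and Mrpl17, which hold both of the first words, Mrps24 and Mrps11, which hold the third, and Mrpl1, the member called lower without correction, which holds none of them. Of the 60 members, 33 hold any of the words, so Mrpl1 is not alone in holding none. Capitals mark the words, which in Mrps11 is on the other strand and reads CGCCATCTT.
Mrpl22 (chr11:58171414-58171713, plus strand): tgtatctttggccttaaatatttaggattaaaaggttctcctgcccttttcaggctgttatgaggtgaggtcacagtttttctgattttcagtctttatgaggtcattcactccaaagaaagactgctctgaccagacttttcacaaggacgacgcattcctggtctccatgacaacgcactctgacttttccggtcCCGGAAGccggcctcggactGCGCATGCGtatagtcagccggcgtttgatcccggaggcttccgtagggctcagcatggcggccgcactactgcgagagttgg
Mrpl17 (chr7:105811038-105811337, minus strand): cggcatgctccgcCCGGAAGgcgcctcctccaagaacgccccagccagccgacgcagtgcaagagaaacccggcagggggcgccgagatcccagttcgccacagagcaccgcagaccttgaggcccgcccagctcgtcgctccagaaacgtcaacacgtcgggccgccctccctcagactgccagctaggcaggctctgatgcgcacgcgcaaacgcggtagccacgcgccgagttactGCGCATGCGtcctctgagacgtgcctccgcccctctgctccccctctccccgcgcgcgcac
Mrps24 (chr11:5707652-5707951, minus strand): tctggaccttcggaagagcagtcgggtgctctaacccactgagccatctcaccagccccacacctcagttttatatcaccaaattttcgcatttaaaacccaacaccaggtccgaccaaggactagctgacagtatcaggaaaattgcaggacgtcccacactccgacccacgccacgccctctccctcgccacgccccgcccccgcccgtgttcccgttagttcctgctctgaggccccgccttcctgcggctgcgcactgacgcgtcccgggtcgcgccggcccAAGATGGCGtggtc
Mrps11 (chr7:78782881-78783180, plus strand): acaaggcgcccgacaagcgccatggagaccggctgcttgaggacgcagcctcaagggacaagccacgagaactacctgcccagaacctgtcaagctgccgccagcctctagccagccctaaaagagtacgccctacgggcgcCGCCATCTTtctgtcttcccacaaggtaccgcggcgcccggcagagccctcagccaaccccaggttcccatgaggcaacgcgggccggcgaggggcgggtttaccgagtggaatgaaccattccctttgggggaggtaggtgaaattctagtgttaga
Mrpl1 (chr5:96209865-96210164, plus strand): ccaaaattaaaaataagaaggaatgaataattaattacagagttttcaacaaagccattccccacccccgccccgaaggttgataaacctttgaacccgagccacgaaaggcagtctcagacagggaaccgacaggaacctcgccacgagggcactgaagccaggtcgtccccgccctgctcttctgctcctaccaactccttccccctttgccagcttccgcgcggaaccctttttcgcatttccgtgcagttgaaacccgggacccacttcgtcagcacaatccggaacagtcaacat
In Mrpl22 the words start 53 and 33 bases before the start site, and in Mrpl17 237 and 11 bases before it. The word in Mrps24 starts at base 37 after the start site, and that in Mrps11 starts 108 bases before it. Mrps11 and Mrpl46, proteins of the small and the large subunit, are transcribed away from each other, and the last 141 bases of the Mrps11 window also belong to the window of Mrpl46.

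The comparison asks which members differed between verapamil-treated and untreated cells. Most changes were small and upward: 42 of the 67 members were higher with verapamil, Mrpl1 was lower, and 24 did not pass the test (edgeR quasi-likelihood test, Benjamini-Hochberg adjusted p under 0.05 over 12306 genes). Of all genes tested, 31.2% were called higher and 31.6% lower. The median log2 fold change was 0.28 over the members, 0.28 over the Mrpl genes and 0.29 over the Mrps genes, against -0.0033 over all genes. With the GC and length slopes of the libraries as covariates, described further on, the medians were 0.033 over the members and 0.030 over all genes. In a bulk library a change per cell, in the number of cells or in the total RNA that each transcript is a share of cannot be told apart. The 3 libraries of a set may come from the same culture, in which case the p-values measure spread that is partly technical. With counts summed per set, 4 sums against 4, 33 members were higher and 0 lower by the same test. Of all genes, 24.4% were called higher and 17.3% lower with these sums. At an unadjusted p under 0.05 the members numbered 42 higher and 0 lower, and the shares of all genes at that threshold are not given here.

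**Figure D1:**
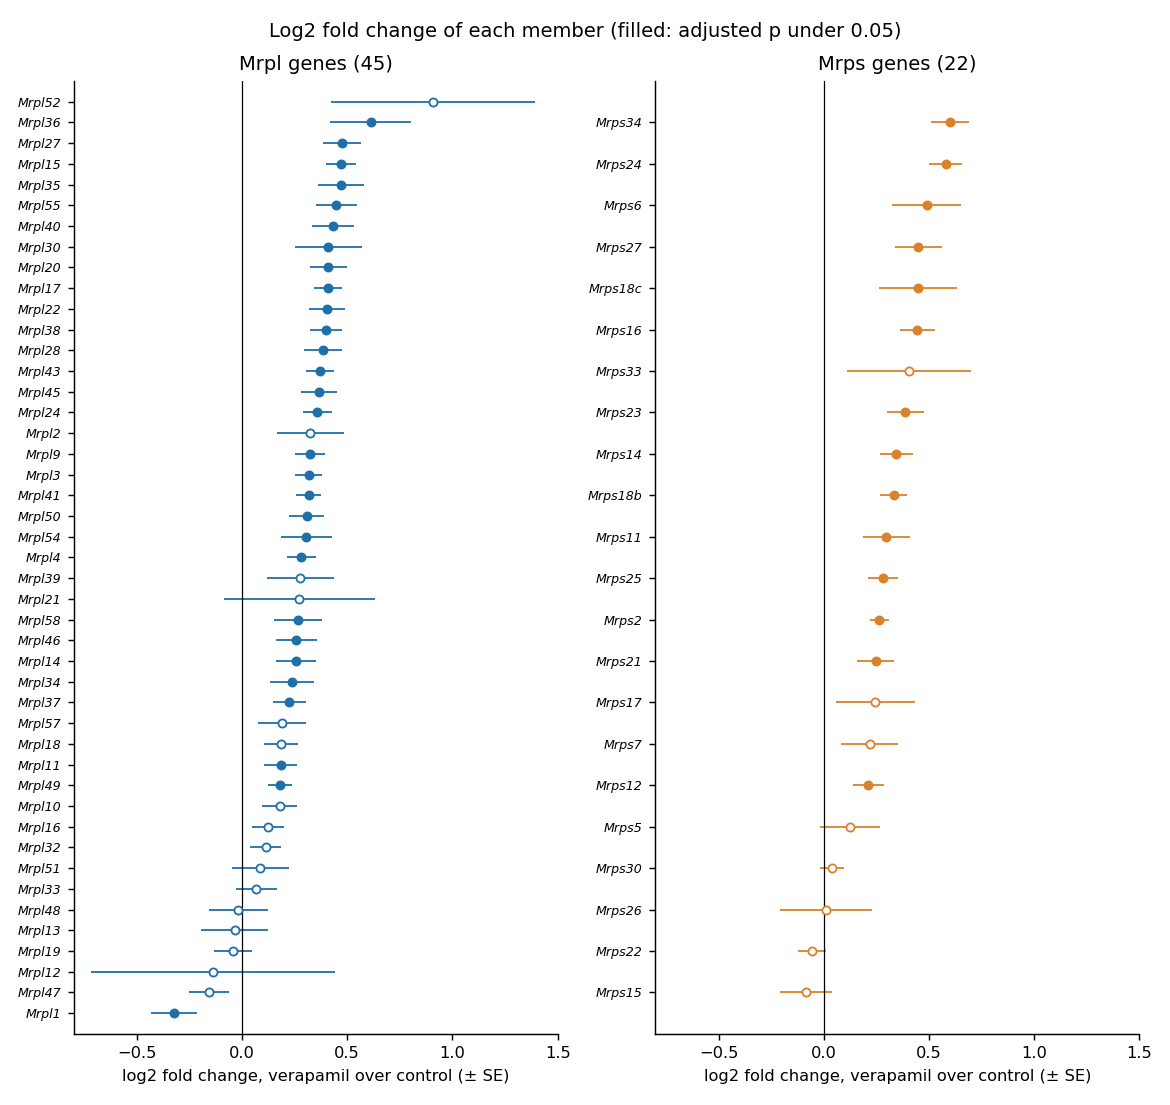
Log2 fold change of verapamil over control for each of the 45 Mrpl (left) and 22 Mrps genes (right), with bars of 1 SE. Filled points passed an adjusted p of 0.05, and of these only Mrpl1 lies to the left of 0.

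Mrps34 and Mrps24, both of the small subunit, had the largest increases among members with a mean of at least 5 CPM. Mrps34, a protein particular to the mitochondrial small subunit, ranged from 51.6 to 64.8 CPM (median 60.6) in the controls and from 63.3 to 127 CPM (median 91.1) with verapamil. All but the lowest verapamil library, a library of set 4, were above every control. The log2 fold change was 0.60 ± 0.09 (SE, adjusted p = 5.6e-06, edgeR), a 1.52-fold increase. The gene (ENSMUSG00000038880, chr17:24895116-24897502, plus strand) shares 763 exon bases with Nme3 on the same strand and 1309 with Mapk8ip3 on the other, so its counts are uncertain.

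Mrps24 encodes the counterpart of bacterial uS3, which lines the channel where mRNA enters the small subunit. It ranged from 27.6 to 32.4 CPM (median 30.5) in the controls and from 35.5 to 60.2 CPM (median 44.1) with verapamil. Every verapamil library was above every control, and Mrps24 was the only member for which the groups did not overlap, while 4.95% of all genes were separated in this way. Its log2 fold change was 0.58 ± 0.08 (adjusted p = 1.5e-06, edgeR), with 0.35, 0.74, 0.71 and 0.48 in experiment sets 1, 2, 3 and 4. The gene (chr11:5703983-5715680, minus strand) shares 226 exon bases with Urgcp.

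The other large increases were in the large subunit, except for Mrps16. Mrpl15, a protein with a bacterial counterpart, had 61.6 ± 3.50 CPM in the controls and 85.3 ± 13.3 CPM with verapamil (SD, n = 12 each), with 11 of 12 verapamil libraries above every control (log2 fold change 0.47, adjusted p = 4.9e-06, edgeR). Mrpl27, a protein next to the peptidyl transferase centre, had 12.7 ± 1.44 and 17.6 ± 3.24 CPM (log2 fold change 0.47, adjusted p = 9.8e-05, edgeR), and 447 bases of its transcript match Gm6304 at 98.9% identity, so reads may be split between these genes. Mrpl35, Mrpl55, Mrps16 and Mrpl40 had log2 fold changes of 0.47, 0.45, 0.44 and 0.43. Between 7 and 10 of the 12 verapamil libraries of these genes lay above every control, and 1 library of Mrpl40 lay below. Mrps16 matches Gm9173 over 402 bases at 96.3% identity. Under 5 CPM, Mrpl36 was called at 0.61 ± 0.19 (adjusted p = 0.0085, edgeR) from 1.12 ± 0.235 CPM in the controls and 1.72 ± 0.717 CPM with verapamil.

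**Figure D2:**
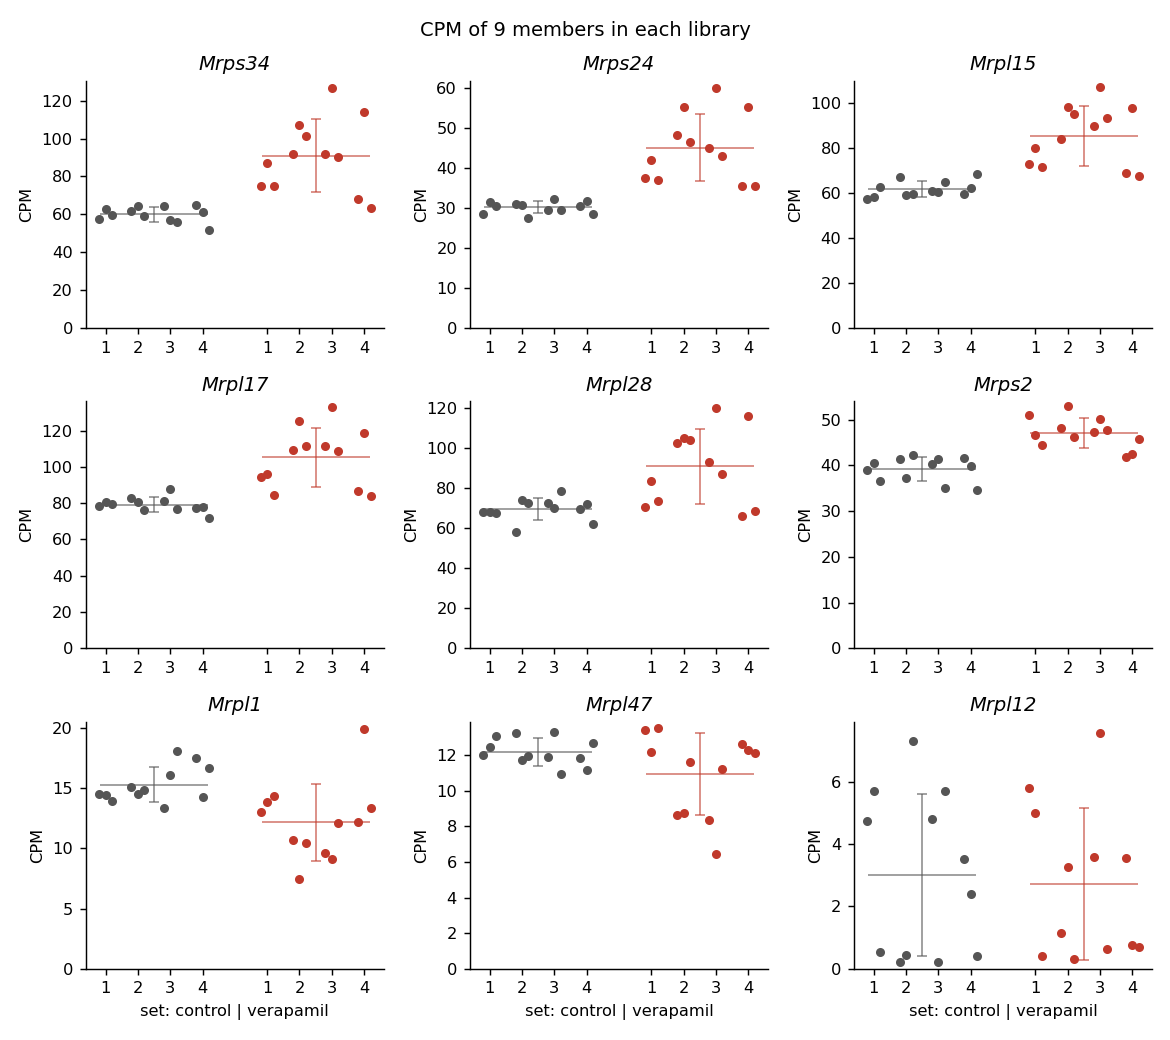
CPM of 9 members in each library, controls in grey and verapamil in red, by experiment set, with the mean and SD of 12 libraries. In set 4 of the verapamil group, 1 library lies near those of sets 2 and 3 and the other 2 lie near the controls for Mrps34, Mrpl15, Mrpl17 and Mrpl28.

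Per kilobase of transcript, Mrpl28 and Mrpl41 led the large subunit in the controls with 65.2 and 62.4 CPM per kb, and Mrpl14 and Mrpl22 followed with 43.3 and 41.8 CPM per kb. In the small subunit Mrps34 led with 65.4 CPM per kb, ahead of Mrps12 with 43.7, Mrps22 with 33.9 and Mrps24 with 30.4 CPM per kb. The medians were 7.32 CPM per kb for the Mrpl genes and 5.94 for the Mrps genes, and the lowest was Mrps26 with 0.238. Transcript lengths move this order: per kilobase of coding sequence Mrpl17, whose annotated transcript has 7300 bases with 528 coding, came first in the large subunit with 150 CPM per kb. Of the 8 leading genes all but Mrps22 rose, Mrpl28 from 69.6 ± 5.43 to 91.0 ± 18.8 CPM (log2 fold change 0.39, adjusted p = 8e-04, edgeR) and Mrpl41 from 48.4 ± 2.51 to 60.2 ± 8.29 CPM (0.32, adjusted p = 0.00012). Mrpl41 matches Gm6434 over 372 bases at 97.8% identity, so its level may include reads of that gene. Mrps22 had 40.6 ± 2.70 and 39.0 ± 5.64 CPM (log2 fold change -0.06 ± 0.07, adjusted p = 0.47), with 3 verapamil libraries below and 1 above every control.

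The stalks of the large subunit, which hold the tRNA leaving the ribosome and recruit translation factors, were the role group with the lowest median log2 fold change (0.18; 2 of 5 measured members higher and 1 lower). Mrpl1, the protein of the L1 stalk, ranged from 13.4 to 18.1 CPM (median 14.7) in the controls and from 7.43 to 19.9 CPM (median 12.2) with verapamil. Verapamil libraries were below every control in 9 of 12 cases, lowest in sets 2 and 3, and the library in column V11 was above every control. The log2 fold change was -0.32 ± 0.11 (adjusted p = 0.013, edgeR). It was -0.41 (adjusted p = 0.00045) without that library, and without set 2 or without set 3 it was -0.24 in both cases (adjusted p = 0.11 and 0.13). Mrpl11 and Mrpl54 passed with 0.18 (adjusted p = 0.046) and 0.30 (0.031), and Mrpl10, at the stalk base, had 0.18 ± 0.08 (0.061; all edgeR).

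Mrpl12, whose protein forms the factor-binding stalk, varied most within the groups. It ranged from 0.207 to 7.32 CPM (median 2.97) in the controls and from 0.320 to 7.56 CPM (median 2.22) with verapamil, from 6 to 235 counts a library. In each group 5 of 12 libraries were under 1 CPM, and the log2 fold change of -0.14 had an SE of 0.58 (adjusted p = 0.85, edgeR). Mrpl52 and Mrpl21 were similarly uneven, with 0 to 170 and 14 to 209 counts a library. Their log2 fold changes were 0.91 ± 0.48 (adjusted p = 0.105) and 0.27 ± 0.36 (0.52).

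Around the peptidyl transferase centre, where peptide bonds form, 3 of 5 measured members rose, with a group median of 0.32. Mrpl3 ranged from 37.8 to 47.8 CPM in the controls and from 42.3 to 67.1 CPM with verapamil (log2 fold change 0.32, adjusted p = 0.00018, edgeR), and Mrpl4 had 52.7 ± 2.19 and 64.0 ± 10.2 CPM (0.28, adjusted p = 0.0012). Mrpl2 (0.32 ± 0.16, adjusted p = 0.080) and Mrpl16 (0.12 ± 0.08, 0.16) did not pass.

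At the exit tunnel, through which the new peptide leaves towards the inner membrane, 4 of 5 measured members rose (median 0.37). Mrpl17 ranged from 71.9 to 87.7 CPM (median 79.2) in the controls and from 83.9 to 133 CPM (median 109) with verapamil, with 9 of 12 verapamil libraries above every control (log2 fold change 0.41 ± 0.07, adjusted p = 1.9e-05, edgeR). Mrpl22, Mrpl24 and Mrpl45, the last of which helps to hold the ribosome at the membrane, had 0.40, 0.36 and 0.37. Mrpl22 shares 621 bases at 97.1% identity with Gm6997, and Mrpl24 overlaps Rrnad1 by 594 exon bases on the other strand. Mrpl47 had 12.2 ± 0.775 CPM in the controls and 10.9 ± 2.29 CPM with verapamil (log2 fold change -0.16 ± 0.10, adjusted p = 0.16), and the 4 libraries below every control were all in sets 2 and 3.

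In the decoding centre and mRNA channel of the small subunit, Mrps12 and Mrps24 rose, and Mrps5 and Mrps7 did not pass (median 0.21). Mrps12, the counterpart of the decoding-centre protein uS12, had 31.6 ± 2.29 and 36.5 ± 5.84 CPM (log2 fold change 0.21, adjusted p = 0.013, edgeR), with 5 of 12 verapamil libraries above every control. Mrps5 had 0.12 ± 0.14 (adjusted p = 0.46) and Mrps7 0.22 ± 0.14 (0.17). Mrps30, which despite its symbol sits in the large subunit, had 19.7 ± 1.04 and 20.3 ± 2.40 CPM (0.04 ± 0.06, adjusted p = 0.54).

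The members can also be grouped by the origin of the protein. Of the large subunit proteins, 17 of 29 with a bacterial counterpart and 11 of 17 particular to mitochondria were higher, with median log2 fold changes of 0.28 and 0.28. Of the small subunit proteins, 9 of 13 and 5 of 8 were higher, with medians of 0.26 and 0.36. The differences between these groups were not tested. The members that did not pass had log2 fold changes between -0.16 (Mrpl47) and 0.91 (Mrpl52), 17 of these 24 above 0. Beside those named above they were Mrpl13, Mrpl18, Mrpl19, Mrpl32, Mrpl33, Mrpl39, Mrpl48, Mrpl51, Mrpl57, Mrps15, Mrps17, Mrps26 and Mrps33. Exons of 31 members overlap another gene and 24 have a near-identical match of at least 100 bases elsewhere, and of the 23 with neither, 15 were higher, with a median of 0.28.

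By promoter word, 4 of 7 members with GCGCATGCG were higher (median log2 fold change 0.32) against 33 of 53 without (0.27), and 14 of 24 with CCGGAAG (0.29) against 23 of 36 without (0.28). All 6 members with AAGATGGCG were higher (median 0.46): Mrpl35, Mrpl36, Mrpl37, Mrps11, Mrps24 and Mrps27. Without it 31 of 54 were higher (0.27). With the covariates Mrps24 alone of the 6 stayed called, and Mrpl36, Mrps11 and Mrps27 have means under 5 CPM. The share called higher among all genes with AAGATGGCG is not given here. Mrps11 and Mrpl46, which share part of their promoter windows, had log2 fold changes of 0.30 ± 0.11 (adjusted p = 0.023, edgeR) and 0.26 ± 0.10 (0.024), and their exons overlap by 173 bases. These counts describe letters in a window and were not tested. Mrps11, Mrpl46, Mrpl36, Mrpl37, Mrps27 and Mrps2 are named here after their values were seen.

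Among the libraries, the level of the members as a group differed widely within the verapamil group. The median log2 difference of the 67 members from the control mean ranged from -0.054 to 0.10 in the controls and from -0.0020 to 0.67 with verapamil (median 0.25), and 10 of 12 verapamil libraries lay above every control. By set, the verapamil libraries had means of 0.15, 0.36, 0.40 and 0.24 in sets 1, 2, 3 and 4 (SD 0.043, 0.14, 0.13 and 0.38, n = 3 each). Within set 4, the library in column V11 was the highest of all at 0.67, whereas the other 2 were at 0.052 and -0.0020, within the range of the controls. The summed level of the members was 1168 ± 23.1 CPM in the controls and 1457 ± 208 CPM with verapamil, of which the Mrpl genes took 824 ± 17.9 and 1025 ± 152 CPM.

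Tested within sets, with 3 libraries against 3, members called higher numbered 7, 29, 23 and 0 in sets 1, 2, 3 and 4, against 13.7%, 26.3%, 19.9% and 0.317% of all genes. In set 4, 6 members had a positive difference at an unadjusted p under 0.05, and the share of all genes at that threshold is not given here. At an adjusted p under 0.05, 39 genes of all were called higher in that set. The median log2 fold change of the members in set 4 was 0.33, against 0.12, 0.34 and 0.34 in sets 1, 2 and 3. Log2 differences were above 0 in all 4 sets for 43 members, among them Mrps34 with 0.39, 0.69, 0.81 and 0.47 and Mrpl41 with 0.25, 0.38, 0.34 and 0.28. The share of all genes above 0 in all 4 sets is not given here. In set 4 the value of Mrpl41 rested on the library in column V11, with 81.7 CPM. The other verapamil libraries of that set had 49.1 and 52.0 CPM, against 51.5, 47.8 and 51.3 CPM in the controls. A test of the interaction of treatment and set found 0 members with an adjusted p under 0.05 and 3 with an unadjusted p under 0.05 (edgeR), against 9.72% and 26.2% of all genes, and the lowest adjusted p of a member was 0.14.

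**Figure D3:**
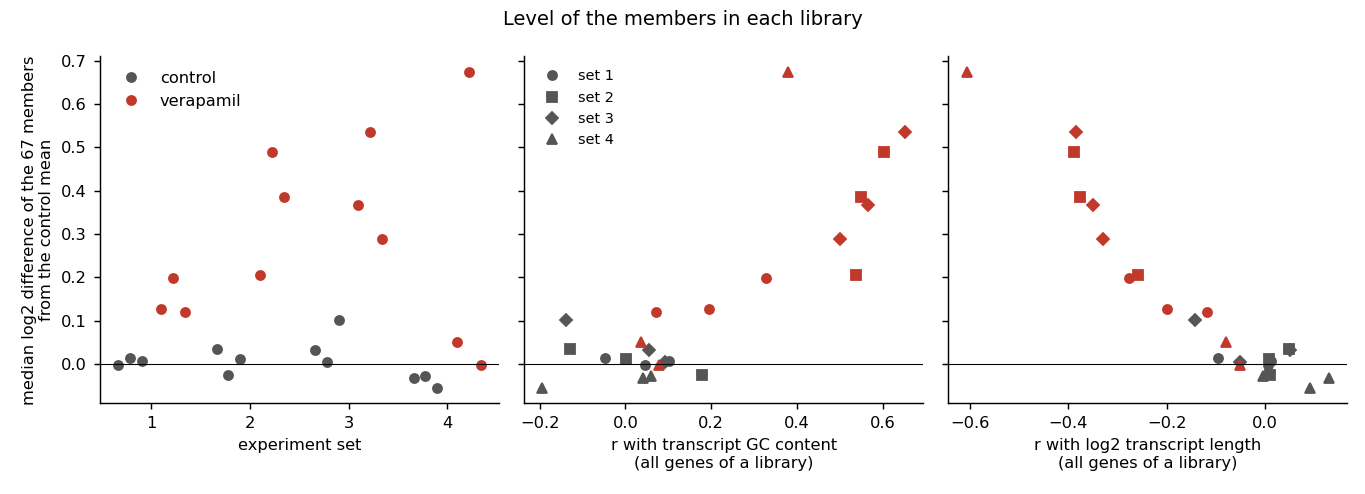
Median log2 difference of the 67 members from the control mean in each library, by experiment set (left), against the library's correlation with transcript GC content (middle) and with log2 transcript length (right). Verapamil libraries with steeper length trends have higher medians, up to 0.67 for the library with r of -0.61 with length, and the 2 set 4 libraries among the controls have GC trends inside the control range.

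The members have short coding sequences. Their median coding length was 576 bases against 1326 over all genes tested, and 49 of the 67 were in the quartile of genes with the shortest coding sequences (up to 785 bases), while their median transcript GC content of 50.1% was near the 50.4% of all genes. In that quartile the median over all genes was 0.22 on the log2 scale and 48.1% of them were called higher, and the 49 members had a median of 0.31 with 32 called higher. In the next quartile all genes had a median of 0.061 and 35.8% were called higher, and the 17 members had 0.28 with 10 called higher. Across quartiles of transcript GC content, from low to high, all genes had medians of -0.45, -0.082, 0.14 and 0.20 and the members 0.19, 0.26, 0.35 and 0.30.

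**Figure D4:**
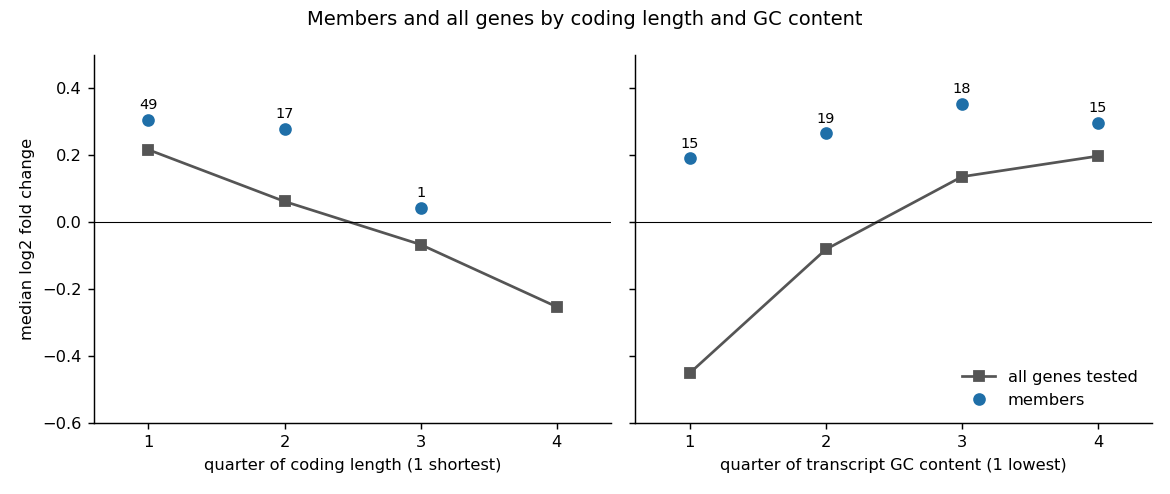
Median log2 fold change of all genes tested (grey) and of the members (blue, number beside each point) by quartile of coding length (left) and of transcript GC content (right). All 7 member medians lie above that of all genes in the same quartile, by the smallest margins in the shortest coding lengths and the highest GC content.

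When the trends of the libraries were taken into account, most of the calls were lost or turned. With the libraries' GC and length slopes as covariates, 5 members were higher (Mrps24, Mrps34, Mrps2, Mrpl15 and Mrpl17) and 2 lower (Mrpl14 and Mrpl33), against 21.4% and 14.2% of all genes, and the median over the members was 0.033 against 0.030 over all genes. These slopes and the treatment vary together (variance inflation 1.99), so their parts cannot be told apart in this design. With the trend on transcript GC content and length removed from each library, 18 members were higher and 10 lower, against 20.6% and 34.6% of all genes, with medians of 0.063 and -0.079. With coding GC content and length instead, a setting added after the data were seen, 9 were higher and 15 lower, against 22.8% and 33.0%, with medians of -0.065 and -0.063.

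Mrps34 and Mrpl15 were the 2 members called higher in all 4 of these fits. Mrps34 had log2 fold changes of 0.60 without correction, 0.17 with the covariates (adjusted p = 0.0081), and 0.10 and 0.10 with the transcript and coding trends removed (0.039 and 0.038, all edgeR). Mrpl15 had 0.47, 0.16 (adjusted p = 0.0078), 0.76 (5.9e-06) and 0.45 (1.4e-05). Mrps24 stayed called with the covariates (0.21, adjusted p = 0.00031) and with the transcript trend removed (0.12, 0.0046) and was at 0.02 (0.81) with the coding trend removed.

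Other members turned direction between the fits. Mrpl14, a protein with a bacterial counterpart, was at 0.25 (adjusted p = 0.023) without correction and at -0.20 (0.0034), -0.30 (5.5e-06) and -0.33 (2e-06) with the covariates and the 2 removals. Mrpl33 was at 0.07 (adjusted p = 0.56) and at -0.24 (0.026) with the covariates. Mrpl17 was at 1.20 with the transcript trend removed and at -0.11 (adjusted p = 0.031, edgeR) with the coding trend removed. Its annotated transcript is mostly outside the coding sequence, and whether this bears on the turn was not tested. Mrpl1 was at -0.32, -0.18 (adjusted p = 0.086), 0.22 (0.049) and 0.21 (0.039). Mrps2, a small subunit protein with a bacterial counterpart, had the lowest coefficient of variation of the members among the verapamil libraries (6.99%, against 6.85% in the controls). It had 39.2 ± 2.68 CPM in the controls and 47.1 ± 3.29 CPM with verapamil, 0.28, 0.27, 0.32 and 0.17 by set, and 0.26 without correction against 0.21 with the covariates (adjusted p = 3.9e-05 and 0.0018). It was at 0.14 (0.0087) and -0.09 (0.27) with the removals.

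Without the library in column V11, 33 members were higher and 1 lower, with a median of 0.25, against 31.4% and 32.3% of all genes. Without the 6 verapamil libraries of sets 2 and 3, whose GC trends were steepest, 21 were higher and 0 lower by edgeR. Of all genes 20.1% were called higher and 19.6% lower, and the median over the members was 0.21. At an unadjusted p under 0.05 the members numbered 32 and 0, and the shares of all genes at that threshold are not given here. Mrps24 and Mrps34 were both at 0.42 in that comparison (adjusted p = 0.00025 and 0.0012, edgeR), Mrps2 at 0.21 (0.0059) and Mrpl1 at -0.08 (0.50).

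Genes that work with the mitoribosome moved in both directions, and their counts stand against the 31.2% of all genes called higher and 31.6% called lower. Of 5 mitoribosomal proteins with other symbols, Aurkaip1 was higher (log2 fold change 0.45, adjusted p = 0.0032), Ptcd3 lower (-0.53, 0.034), and Chchd1 (0.12, 0.30), Gadd45gip1 (0.24, 0.10) and Dap3 (-0.0010, 0.99) did not pass. With the covariates Aurkaip1 was at 0.0092 (adjusted p = 0.97) and Ptcd3 at 0.071 (0.72), so the call of each was lost and the direction of Ptcd3 turned. Ptcd3 also lost its call with both trend removals (0.16 and 1.0) and with sums per set (0.22), and it differed between sets (interaction adjusted p = 0.045). Of 21 mitoribosome assembly factors 12 were higher and 2 lower (median 0.20), and with the covariates 1 was higher and 0 lower (median 0.091, edgeR), the same numbers as at an unadjusted p under 0.05. With the transcript trend removed 4 were higher and 2 lower (median -0.0085). The uncorrected changes were led by Mpv17l2 (0.53, adjusted p = 0.00038) and Malsu1 (0.49, 0.0012). Tfb1m, the methyltransferase of the small ribosomal RNA, was lower (-0.42, 0.00057), as was Gtpbp10 (-0.84, 0.047), a GTPase of large subunit maturation.

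Of 14 translation factors 3 were higher and 5 lower (median -0.24), shares that for the lower calls are near those of all genes. With the covariates 0 were higher and 3 lower (median -0.014, edgeR), against 21.4% and 14.2% of all genes. At an unadjusted p under 0.05 the factors numbered 0 and 5, and the shares of all genes at that threshold are not given here. Guf1, a mitochondrial elongation factor of the LepA type, ranged from 11.6 to 16.5 CPM in the controls and from 2.47 to 9.77 CPM with verapamil, every verapamil library below every control (log2 fold change -1.14 ± 0.18, adjusted p = 9.3e-06, edgeR). Of all 12306 genes tested, 638 were separated downward in this way. Mtif2, the initiation factor that joins the subunits, fell from 17.4 ± 4.02 to 7.32 ± 4.98 CPM (-1.24 ± 0.30, adjusted p = 0.0011, edgeR). The elongation factor Gfm1 had -0.63 (adjusted p = 0.0065), and Gfm2 had -0.78 (0.018, both edgeR). Guf1 and Mtif2 were at -0.62 (3e-06) and -0.53 (0.012) with the slopes as covariates. Oxa1l, the insertase at the tunnel exit, rose by 0.41 (adjusted p = 0.00024).

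Of the machinery for mitochondrial DNA and RNA, 3 of 13 genes were higher and 3 lower (median -0.061). With the covariates 0 were higher and 1 lower (median 0.0098), and with the transcript trend removed 3 and 2 (median -0.0026). The values of single genes that follow are without correction unless stated. Pnpt1, a polynucleotide phosphorylase, fell from 91.2 ± 7.70 to 46.1 ± 23.9 CPM (log2 fold change -0.98, adjusted p = 0.0011), with every verapamil library below every control, as for 638 of all 12306 genes. Hsd17b10, a subunit of mitochondrial RNase P, rose by 0.52 (3.2e-05). Ssbp1, the single-stranded DNA binding protein, had -0.49 (0.0066) and Trmt10c, another RNase P subunit, -0.35 (0.033). Regulators of mitochondrial gene expression were split, 5 of 11 higher and 4 lower (median -0.047). With the covariates 3 were higher and 0 lower (median 0.093), and with the transcript trend removed 4 and 2 (median -0.015). Esrra, a nuclear receptor that acts with PGC-1, ranged from 150 to 177 CPM in the controls and from 186 to 335 CPM with verapamil (0.71, adjusted p = 2.3e-07), and Myc rose by 0.57 (3.2e-09). The factors named with the promoter words had log2 fold changes of 0.17 for Nrf1 (adjusted p = 0.0041), -0.86 for Gabpa (0.002) and -0.21 for Yy1 (0.0095), and with the covariates 0.12 (0.055), -0.03 (0.79) and 0.06 (0.24).

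**Figure D5:**
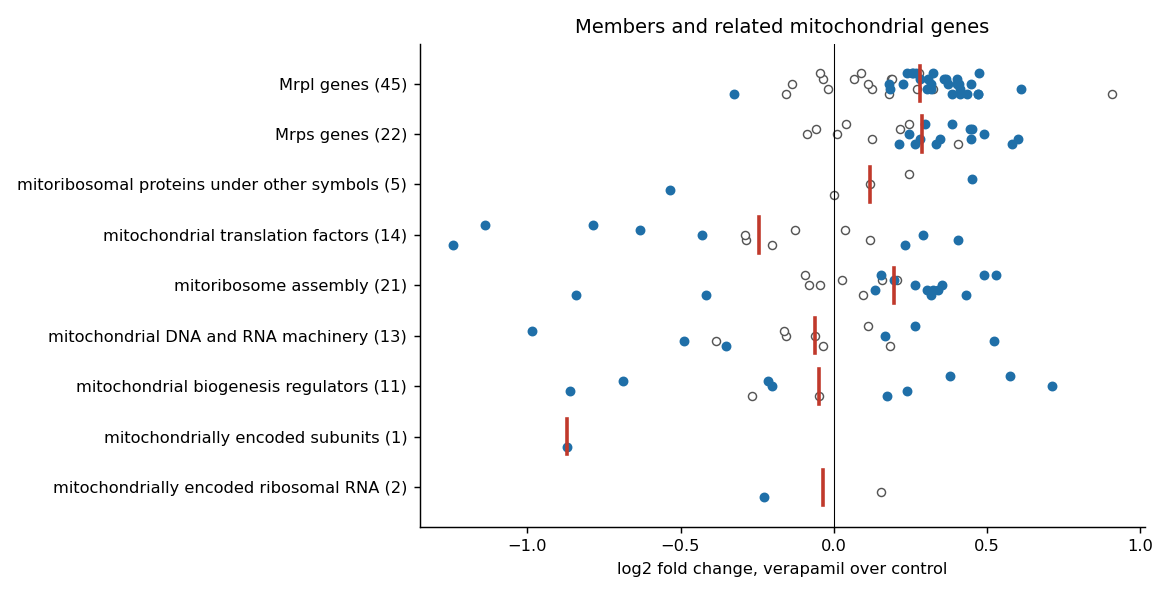
Log2 fold changes of the members and of 7 related lists, with the number of measured genes in brackets. Filled points passed an adjusted p of 0.05 and red bars are medians, at 0.28 and 0.29 for the Mrpl and Mrps genes and -0.24 for the translation factors.

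The ribosomal RNAs that these proteins bind are transcribed in the mitochondrion. The small ribosomal RNA mt-Rnr1 had 345 ± 29.2 CPM in the controls and 295 ± 68.2 CPM with verapamil (log2 fold change -0.23 ± 0.09, adjusted p = 0.037, edgeR), with 7 of 12 verapamil libraries below every control. The large ribosomal RNA mt-Rnr2 had 401 ± 52.8 and 447 ± 121 CPM (0.15 ± 0.11, adjusted p = 0.24). With the transcript trend removed they were at 0.40 (0.00071) and 0.86 (7e-08), so the direction of mt-Rnr1 turned. With the covariates 1 of these 2 RNAs was called higher and 0 lower (median 0.10), so the lower call of mt-Rnr1 was lost. With the coding trend removed 2 were called higher and 0 lower (median 0.87). The transcripts the mitoribosome translates were represented by mt-Co3 alone, at 2.58 ± 0.632 CPM in the controls and 1.40 ± 0.626 CPM with verapamil (-0.87, adjusted p = 0.00067), a level far under that of either ribosomal RNA. By set it was at -1.10, -1.19, -1.39 and -0.13. With the covariates (-0.72) and the transcript trend removed (-0.50) mt-Co3 stayed called lower, and with the coding trend removed (-0.27) its call was lost.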

How the data were processed

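RNA from MIN6 cells, 12 control and 12 verapamil libraries, was sequenced. The deposited table holds whole-number counts per gene and library, made by the authors with bcl2fastq 2.20, Trimmomatic 0.39, HISAT2 2.1.0 on GRCm38 and HTSeq 0.9.1. For the strand setting and annotation release, no value is given in the sources used here, and the labels and the methods name different library kits and amounts of RNA. The authors' own average log2 CPM, log2 fold change and fold change (a ratio), p-value and adjusted p-value columns, and a log10 p-value column treated as a score, were deposited in the same table and were not used.

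Counts were tested with edgeR 4.0.16 (R 4.3.3): filterByExpr (minimum count 10, minimum total 15), scaling by trimmed mean of M values, the quasi-likelihood test of verapamil against control without covariates, and Benjamini-Hochberg adjustment over 12306 genes. CPM values used the same scaling. The leading digit of each sample description was taken as the experiment set, which no source spells out. The 4 columns without a sample number (2 per group) were mapped to their group only and fell in set 4 by elimination. Gene positions, lengths and GC content came from GENCODE M21 (GRCm38), matched by gene ID for all 12310 rows, with near-identical copies (at least 95% identity over 100 bases) found by blastn 2.17.0. Slopes of each library on GC content and log2 length were used as covariates, or the trend was removed as an offset.

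Named genes were the 8 largest increases and decreases past the threshold among members with at least 5 CPM, the 4 highest per kilobase in each subunit, the role lists, members not past the threshold, and members whose direction turned with the covariates, with up to 4 genes of each related list. The members and lists were chosen with earlier results of these data known. Alternatives were DESeq2 1.42.0, other scaling factors, no filter, blocks, sums per set, single sets, left-out sets or libraries and the trend settings. Replicates differed by more than sampling noise, with chi-square per degree of freedom between 5.72 and 257. Intervals of counting error were not needed, as errors are SDs over libraries.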

Additional observations from a re-analysis of the deposited data

How the results depend on the processing

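Against 42 members higher and 1 lower with a median log2 fold change of 0.28, DESeq2 gave 43 and 1, upper-quartile factors 45 and 1 and no filter 42 and 1. The filter kept 12306 of the 12310 rows, so the fit without it could hardly differ and tests little. Deviations of control and verapamil libraries with the same replicate number or set correlated with r between -0.042 and 0.11, so these were not treated as pairs, although verapamil libraries of a set resembled each other in their GC trends (0.50 to 0.65 in set 3 and 0.072 to 0.33 in set 1). With the replicate number as a block over 20 libraries 34 were higher and 1 lower, and with the set as a block 44 and 1. None of the members were lower (0) with sums per set, in set 1 or set 4 alone, without set 2, without set 3 or without the verapamil libraries of sets 2 and 3, and 2 were lower in set 2 alone. Members higher numbered 7 in set 1, 23 in set 3 and 0 in set 4 alone and 21 without the verapamil libraries of sets 2 and 3, which were fits on fewer samples. With the transcript trend removed 18 were higher and 10 lower (median 0.063), with the covariates 5 and 2 (0.033), and with the coding trend removed 9 and 15 (-0.065). Of 27 named members past the threshold, 13 kept their call in all 13 alternatives that were neither a single set nor a trend setting, and 0 turned direction there. Of the 43 members past the threshold, 11 turned direction with the covariates, 15 with the transcript trend removed and 27 with the coding trend removed, of which 1, 7 and 11 passed the threshold in the new direction. The lists that follow hold only named members past the threshold without correction or in the fit given. Named members past it in neither also turned, such as Mrpl2 (0.32 to -0.20 with the covariates) and Mrpl16 (0.12 to -0.11). With the covariates, directions of listed members turned for Mrpl4 (-0.029), Mrpl11 (-0.050), Mrpl14 (-0.20), Mrpl28 (-0.040), Mrpl33 (-0.24), Mrpl37 (-0.12), Mrpl54 (-0.048) and Mrps12 (-0.092). With the transcript trend removed the listed members that turned were Mrpl1 (0.22), Mrpl4 (-0.14), Mrpl10 (-0.13), Mrpl14 (-0.30), Mrpl28 (-0.083), Mrpl33 (-0.16), Mrpl37 (-0.16), Mrpl41 (-0.11), Mrpl46 (-0.12), Mrpl54 (-0.25), Mrps11 (-0.12) and Mrps12 (-0.31). With the coding trend removed they were Mrpl1 (0.21), Mrpl4 (-0.12), Mrpl10 (-0.24), Mrpl11 (-0.24), Mrpl14 (-0.33), Mrpl17 (-0.11), Mrpl18 (-0.26), Mrpl27 (-0.074), Mrpl28 (-0.059), Mrpl36 (-0.040), Mrpl41 (-0.011), Mrpl46 (-0.074), Mrpl54 (-0.30), Mrpl55 (-0.13), Mrpl57 (-0.45), Mrps2 (-0.092), Mrps11 (-0.19), Mrps12 (-0.37) and Mrps16 (-0.056), and in set 1 alone Mrpl14 (-0.056), Mrpl37 (-0.038) and Mrps12 (-0.0085). The cause was not tested. Settings that leave out libraries or use coding sequences for the trend were chosen after seeing the data. Of the 20 members under 5 CPM, 7 were called.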
